A study of Mus musculus with 26 samples.

Results

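The strain comparison under vehicle rests on 14 of the 26 libraries of the series: 7 from left ventricles of vehicle-treated BPH/2J mice and 7 from vehicle-treated BPN/3J mice, chosen by the strain and treatment in the sample labels. BPH/2J is an inbred line bred for high blood pressure and BPN/3J is its normotensive counterpart. Both groups were adult mice that received vehicle once a day for 28 days, and no animal of either group received Cmpd17b, the formyl peptide receptor agonist given to the other 12 animals at 50 mg/kg a day. On each side 5 libraries belonged to batch 1 and 2 to batch 2, each library came from its own mouse, and the labels give neither age in weeks nor sex. Because the groups are separate inbred lines, the difference in blood pressure and every other inherited difference between the lines cannot be told apart.

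Hypertension loads the left ventricle with pressure. A loaded ventricle is known to grow thicker, to switch on stretch-responsive and fetal muscle genes such as the natriuretic peptides, to lay down collagen and to move its fuel use from fatty acids toward glucose. The BPH/2J line is also known for an overactive sympathetic nervous system, which acts on the heart through adrenergic receptors. Genes of these processes were followed as lists, along with immune genes and markers of each cell type that the tissue could hold.

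The 14 libraries held between 25476100 and 48648200 counts. Mean totals were 35600000 ± 8040000 (SD, n = 7) in BPH/2J and 31750000 ± 4910000 (n = 7) in BPN/3J, and the mitochondrial share of counts was 32.37 ± 1.6% and 33.7 ± 3.05%. Neither measure separated the strains (exact permutation test of labels within batch, two-sided, p = 0.18 and 0.221, adjusted p = 0.332 for both). The labelled tissue was checked against 12 cardiomyocyte markers, which summed to 68400 to 85200 CPM (counts per 1000000 after scaling of the library) in BPH/2J and 72900 to 91900 CPM in BPN/3J. None of them was called between the strains, and the 95% interval of each lay within 1.5-fold. By transcript the 14 libraries were male. The Y-linked Ddx3y stood at 43.4 to 82.5 CPM in BPH/2J and 36.5 to 87.5 CPM in BPN/3J. Xist reached at most 0.205 and 0.147 CPM. BPN_vehicle replicate 7 stood apart. By rank it correlated with the other 13 at a median of 0.944, and the other libraries at 0.966 to 0.978. The summed level of 22 endothelial markers was 4870 CPM in it, against 1700 to 2240 CPM in the other 13 libraries. Hepatocyte transcripts were present in BPN_vehicle replicates 1, 2 and 4, with albumin (Alb) at 212, 338 and 35.4 CPM, while the other 11 libraries held at most 5.55 CPM. Of 13 hepatocyte markers tested, 0 were called higher in BPH/2J and 10 lower (76.9%, beside 15.6% of all genes). Without those 3 libraries, 3 of 10 were called lower (30%, beside 8.9% of all genes). The part of hepatocyte transcripts in the other genes called lower was not tested. The atrial light chain Myl7 stood at 69.7 CPM in BPH_vehicle replicate 7 and at no more than 1.53 CPM elsewhere. BPN_vehicle replicates 1 and 2 are the batch 2 libraries of their strain and BPH_vehicle replicate 7 is 1 of the 2 of its own, so comparisons within batch 2 rest on libraries that held these transcripts. Kidney markers were detected in both strains. The 12 markers summed to 6.76 to 105 CPM in BPH/2J and 6.62 to 134 CPM in BPN/3J. Kap alone stood at 5.59 to 78.5 CPM and 3.16 to 92.8 CPM. Of 9 kidney markers tested, 1 was called, lower in BPH/2J.

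The ventricles of the strains differed at 2362 of 15189 genes tested, or 15.6%, with 1128 higher in BPH/2J (7.43%) and 1234 lower (8.12%). A gene is called where the adjusted p of edgeR's quasi-likelihood test is under 0.05, and differences are log2 values of BPH/2J minus BPN/3J. Many calls were small: 948 were under 1.5-fold, 538 between 1.5-fold and 2-fold, 502 between 2-fold and 4-fold and 374 over 4-fold. Against a null of 1.5-fold, 701 genes (4.62%) were called, 343 higher and 358 lower. At 983 genes (6.47%) the libraries of the strains did not overlap at all. For 9343 genes the 95% interval lay wholly within 1.5-fold. Without BPN_vehicle replicate 7 the count rose to 3645, or 24.1%. Of the 2362 genes, 2304 were still called in the same direction, 44 were not and 14 were no longer tested. Fitting all 26 libraries of the 4 groups with a shared spread gave 1525 calls, and 25 libraries, without a Cmpd17b library that held kidney transcripts, gave 3081.

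The plot of calls by gene list sets these shares beside each process. The lists for class II and class I antigen presentation held the largest shares of lower genes among the 39 lists plotted, and the extracellular matrix list held the largest share of higher genes. With all 14 libraries, the tricarboxylic acid cycle and the mitochondrially encoded genes held no call. Each list count below is to be read beside the share over all genes in the same fit. That share was 15.6% with all 14 libraries, 24.1% without BPN_vehicle replicate 7 and 8.9% without BPN_vehicle replicates 1, 2 and 4.

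**Figure D1:**
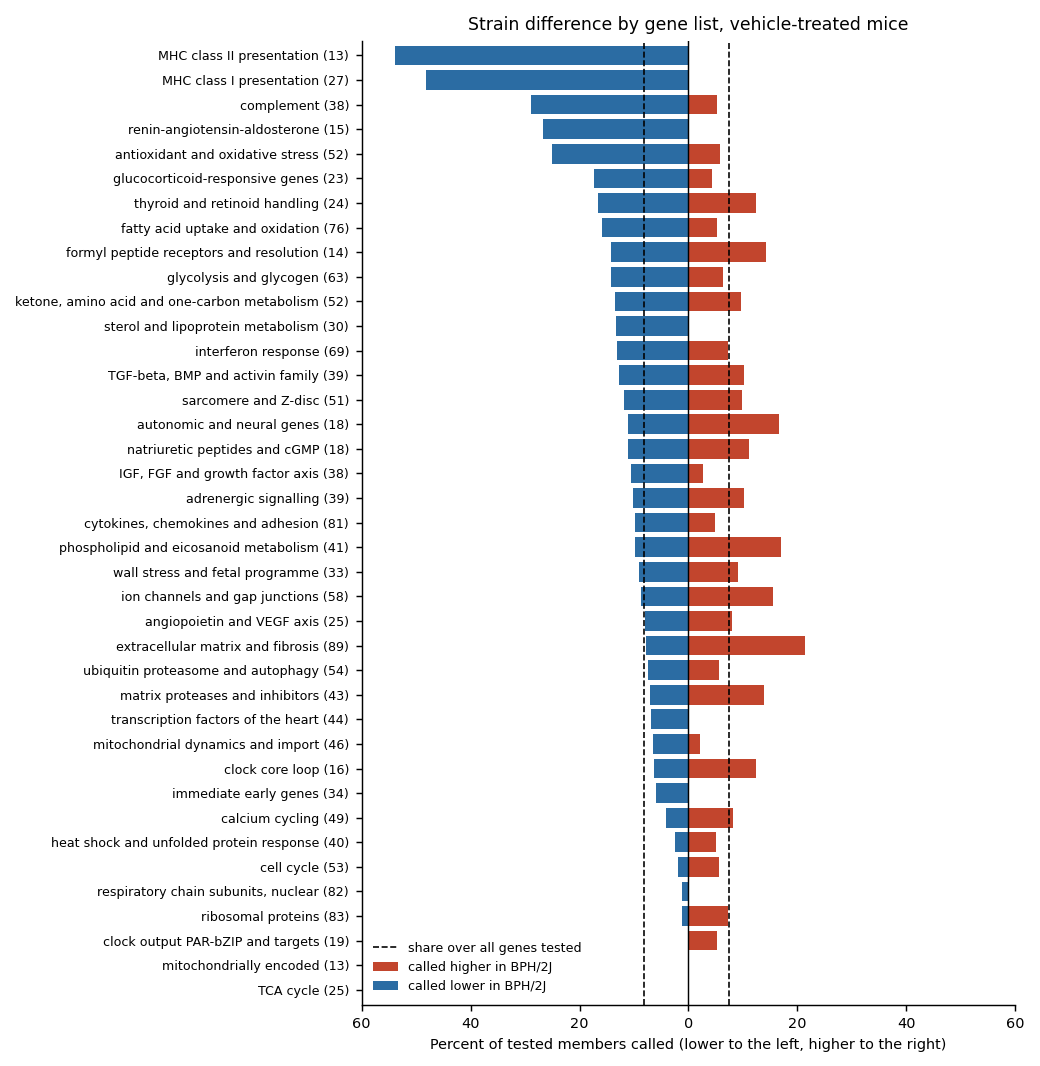
Percent of tested members of each gene list called lower (blue, to the left) or higher (red, to the right) in BPH/2J than in BPN/3J under vehicle, with the number tested in parentheses, for the 39 lists other than cell markers with at least 12 tested members. The dashed lines give the shares over all genes tested, 8.12% lower and 7.43% higher. MHC class II reaches 7 of 13 lower and extracellular matrix 19 of 89 higher.

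The batches share no library, so each gave its own reading of the strain difference. Batch 1 (5 against 5) called 1509 of 14791 genes (10.2%), and batch 2 (2 against 2) called 1168 of 14814 (7.88%). Of 1461 genes called in batch 1 and tested in both, 1416 (96.9%) had the same sign in batch 2, where 65.4% of all genes did. Both batches called 658 genes, all with the same sign, which is 45% of the batch 1 calls and 69% of the batch 2 calls. No gene of 15978 was called by edgeR for a strain difference that itself differed between batches, and 653 had an unadjusted p under 0.05. That count depended on single libraries: 15 genes were called without BPN_vehicle replicate 4, 2 without BPH_vehicle replicate 1 and 1 each without BPN_vehicle replicate 2 or 7. A further set of mice, the batch 1 animals given Cmpd17b, also shares no library with the vehicle groups. Its strain difference called 2928 of 14591 genes (20.1%). Of 2236 genes called under vehicle and tested there, 98.5% had the same sign, against 71.5% of all genes, and 1627 were called in both, 72.8% of the vehicle calls and 55.7% of the Cmpd17b calls.

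**Figure D2:**
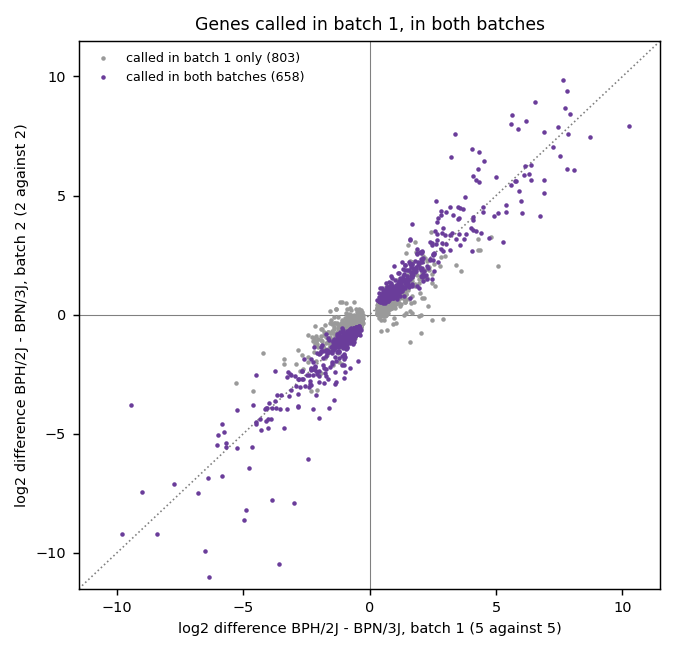
Log2 difference between BPH/2J and BPN/3J in batch 1 (x axis, 5 against 5 libraries) and batch 2 (y axis, 2 against 2) for the 1461 genes called in batch 1 and tested in both. Each point is a gene, purple where both batches called it (658) and grey where batch 1 alone did (803), and the dotted line marks equal differences. Points in the upper right and lower left have the same sign, as 1416 do.

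The classical genes of wall stress did not move together. Ankrd1, a stretch-responsive repressor in the cardiomyocyte nucleus and sarcomere, was higher in BPH/2J, whereas Nppb, which encodes B-type natriuretic peptide, and Acta1, the skeletal actin re-expressed in loaded hearts, were lower. Values per strain are given here and below as the lowest, the median and the highest of its 7 libraries, in CPM, with BPH/2J first. Ankrd1 stood at 1150, 1390 and 1880 CPM in BPH/2J and 329, 433 and 766 CPM in BPN/3J. The log2 difference was 1.52 ± 0.18 (± SE here and below), with an adjusted p of 8.71e-06. Nppb stood at 137, 175 and 229 CPM in BPH/2J and 253, 319 and 629 CPM in BPN/3J (-1.03 ± 0.18, adjusted p = 0.000668). Acta1 stood at 378, 513 and 618 CPM and 712, 1010 and 1300 CPM in the same order (-0.98 ± 0.14, adjusted p = 0.000107). The strains did not overlap for any of these genes, so every BPH/2J ventricle had more Ankrd1 and less Nppb and Acta1 than every BPN/3J ventricle. Nppa, the atrial natriuretic peptide gene, stood at 330, 508 and 898 CPM in BPH/2J and 172, 339 and 887 CPM in BPN/3J and overlapped widely (95% interval of the log2 difference -0.36 to 1.08, adjusted p = 0.556). It was called higher in batch 2 alone (1.04), which holds the BPH/2J library with atrial Myl7, and also in the batch 1 mice given Cmpd17b (1.76, adjusted p = 0.00198). The slow and fast myosins Myh7 (-0.34 ± 0.15) and Myh6 (0.03 ± 0.10) and the stretch sensor Csrp3 (-0.20 ± 0.10) were not called. Of 33 wall stress and fetal genes tested, 3 were called higher and 3 lower (18.2%, beside 15.6% of all genes). The median log2 difference was 0.13 beside -0.005 over all genes. Without BPN_vehicle replicate 7 the counts were 7 and 9, where 24.1% of all genes were called.

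Calls within the contractile apparatus included thin filament isoforms and an M-band protein. Tpm2, the beta tropomyosin, was higher by 1.34 ± 0.21 (adjusted p = 0.000193), and Tpm3, the gamma tropomyosin, was lower (-1.29 ± 0.13, adjusted p = 1.59e-06). Tpm3 stood at 15.1, 21.8 and 25.2 CPM in BPH/2J and 42.4, 46.8 and 80.1 CPM in BPN/3J, with no overlap. For Tpm2, 5 of 7 BPH/2J libraries lay above every BPN/3J library. Neb, the giant ruler protein nebulin, was higher (1.40 ± 0.20, adjusted p = 7.86e-05), and Myom3, an M-band protein, was lower (-1.26 ± 0.14, adjusted p = 4.67e-06), both without overlap. Tnni1, the slow skeletal troponin I of the fetal heart, stood at 0.326, 0.887 and 1.54 CPM in BPH/2J and 0, 0.0577 and 0.184 CPM in BPN/3J (3.77 ± 0.51, adjusted p = 3.69e-05), a separation at low counts. The small heat shock proteins Hspb7 (-0.78 ± 0.12, adjusted p = 0.000179) and Cryab (-0.40 ± 0.08, adjusted p = 0.00249) were lower in all 7 BPH/2J libraries than in any BPN/3J library. For Cryab the margin was narrow, with 878 CPM the highest in BPH/2J and 879 CPM the lowest in BPN/3J. Mstn, which encodes the muscle growth inhibitor myostatin, stood at 0, 0.102 and 0.163 CPM and 0.294, 0.366 and 0.502 CPM (-2.39 ± 0.55, adjusted p = 0.00562). In all, 5 of 51 sarcomere and Z-disc genes were called higher and 6 lower (21.6%, beside 15.6% of all genes), with a median of -0.02. Without BPN_vehicle replicate 7 they were 5 and 12, where 24.1% of all genes were called. The calls of Tnni1 and Cryab ended in batch 2 alone (2 against 2). Further calls ended with all 26 libraries (Ankrd1, Nppb, Acta1, Neb, Hspb7 and Cryab) and without BPN_vehicle replicates 1, 2 and 4 (Mstn).

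**Figure D3:**
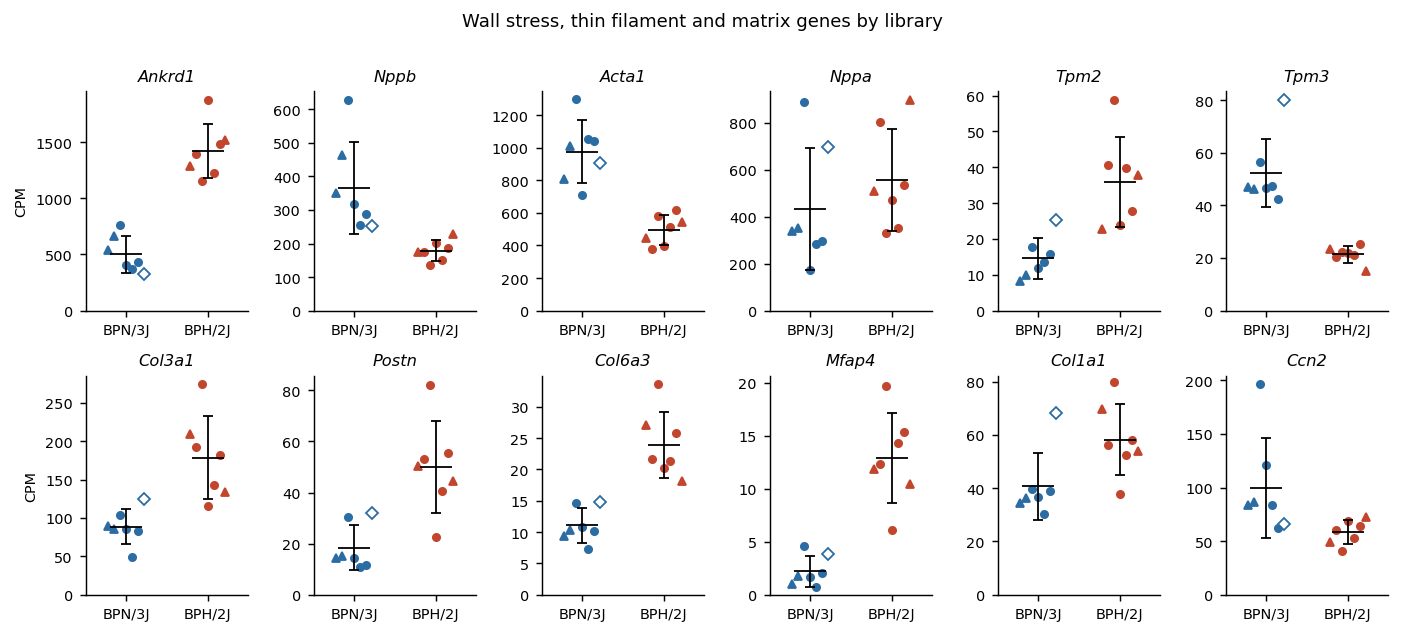
Levels in CPM (y axes, starting at 0) of wall stress and thin filament genes (upper row) and matrix genes (lower row) in each library of BPN/3J (blue) and BPH/2J (red). Circles are batch 1, triangles batch 2, the open diamond is BPN_vehicle replicate 7, and black lines give the mean ± SD (n = 7). Ankrd1, Nppb, Acta1, Tpm3, Col6a3 and Mfap4 do not overlap between strains, while Nppa, Col1a1 and Ccn2 do.

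Matrix genes were more often higher than lower in BPH/2J. Of 89 extracellular matrix and fibrosis genes tested, 19 were called higher and 7 lower (29.2%, beside 15.6% of all genes), with a median of 0.15. Without BPN_vehicle replicate 7 the counts were 33 and 7 of 88, where 24.1% of all genes were called. Without BPN_vehicle replicates 1, 2 and 4, a fit in which batch 1 alone informs the difference (5 against 4), they were 8 and 4 of 90, beside 8.9% of all genes called. Col3a1, the main chain of type III collagen, stood at 116, 182 and 274 CPM in BPH/2J and 48.7, 85.6 and 125 CPM in BPN/3J (1.01 ± 0.20, adjusted p = 0.00159). Postn, the matricellular protein of activated fibroblasts, stood at 22.7, 50.5 and 82.2 CPM and 10.9, 14.6 and 32 CPM (1.44 ± 0.29, adjusted p = 0.00227). For both genes 6 of 7 BPH/2J libraries lay above every BPN/3J library. Col6a3, a chain of type VI collagen, stood at 18.2, 21.6 and 33.6 CPM in BPH/2J and 7.22, 10.3 and 14.9 CPM in BPN/3J, with no overlap (1.12 ± 0.16, adjusted p = 6.41e-05).

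Mfap4, a microfibril-associated glycoprotein, stood at 6.08, 12.4 and 19.7 CPM in BPH/2J and 0.732, 1.73 and 4.58 CPM in BPN/3J (2.55 ± 0.33, adjusted p = 2.7e-05), without overlap. The fibrillins Fbn1 (0.76 ± 0.16, adjusted p = 0.00214) and Fbn2 (1.95 ± 0.41, adjusted p = 0.00293) were higher, as was Ltbp1, which tethers latent TGF-beta to the fibrils (0.35 ± 0.06, adjusted p = 0.000675). The proteoglycan gene Vcan was higher by 0.64 ± 0.13 (adjusted p = 0.00177) and the matricellular thrombospondin Thbs2 by 0.60 ± 0.10 (adjusted p = 0.00047). Type I collagen was less clear. Col1a1 stood at 37.8, 56.1 and 79.7 CPM in BPH/2J and 30.4, 36.5 and 68.3 CPM in BPN/3J, and BPN_vehicle replicate 7 held the highest BPN/3J value. It missed the threshold (0.52 ± 0.18, adjusted p = 0.0528) and was called without that library (0.69, adjusted p = 0.00213).

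Of the 7 matrix genes lower in BPH/2J, Thbs1, an activator of latent TGF-beta, differed by -0.88 ± 0.17 (adjusted p = 0.00124), and Ccn1, a matricellular protein, by -0.48 ± 0.12 (adjusted p = 0.00912). Ccn2, the connective tissue growth factor, stood at 40.9, 60.6 and 72.1 CPM in BPH/2J and 62, 83.7 and 197 CPM in BPN/3J (-0.77 ± 0.22, adjusted p = 0.0238). That call ended without BPH_vehicle replicate 1, 3 or 5 (adjusted p = 0.0541, 0.0559 and 0.0532). Tgfb1 itself was not called (-0.24 ± 0.15, adjusted p = 0.323). Among matrix proteases, Mmp3, or stromelysin-1, stood at 0.906, 2.07 and 3.84 CPM in BPH/2J and 0, 0.0358 and 0.355 CPM in BPN/3J (4.75 ± 0.51, adjusted p = 3.27e-06), without overlap. The difference was 5.81 without BPN_vehicle replicate 7, which held the highest BPN/3J level. Mmp28 (-1.43 ± 0.24, adjusted p = 0.000399) and the urokinase gene Plau (-0.78 ± 0.17, adjusted p = 0.00293) were lower. Of 43 proteases and inhibitors 6 were called higher and 3 lower (20.9%, beside 15.6% of all genes), with a median of 0.13. The counts became 12 and 3 of 41 without BPN_vehicle replicate 7, with a median of 0.25, where 24.1% of all genes were called. Without BPN_vehicle replicates 1, 2 and 4 they were 3 and 2 (11.6%, beside 8.9%). Fibroblast markers summed to 1670 to 2010 CPM in BPH/2J and 1880 to 3220 CPM in BPN/3J, with 2 of 15 called higher and 2 lower (7 and 2 without BPN_vehicle replicate 7). Fewer cells of a type and less RNA per cell cannot be told apart in these bulk libraries. Ltbp1, Vcan, Ccn1, Ccn2 and Mmp28 lost their calls in batch 2 alone (2 against 2). Calls also ended in batch 1 alone (Ccn2), with all 26 libraries (Col3a1, Postn, Fbn1, Ltbp1, Vcan, Thbs2, Thbs1, Ccn1, Ccn2 and Plau), with 25 libraries (Postn and Thbs1) and without BPN_vehicle replicates 1, 2 and 4 (Fbn1, Fbn2, Ccn1, Ccn2 and Plau).

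Genes of fatty acid handling were more often lower in BPH/2J, with exceptions that included Ucp3, a gene known to rise on fasting. Of 76 tested, 4 were called higher and 12 lower (21.1%, beside 15.6% of all genes), with a median of -0.09. Without BPN_vehicle replicate 7 the counts were 7 and 29, where 24.1% of all genes were called. Without BPN_vehicle replicates 1, 2 and 4 they were 4 and 5 of 77 (11.7%), where 8.9% of all genes were called. The oxidation enzymes Acaa2, a mitochondrial thiolase, and Ech1, a dienoyl-CoA isomerase, were lower without overlap. Acaa2 stood at 407, 535 and 579 CPM in BPH/2J and 711, 737 and 910 CPM in BPN/3J (difference -0.53 ± 0.09, adjusted p = 7e-04), while Ech1 stood at 607, 922 and 967 and 988, 1280 and 1380 CPM (-0.51 ± 0.11, adjusted p = 0.00314). The thioesterase Acot7 (-0.71 ± 0.08, adjusted p = 1.06e-05) and Fasn, the fatty acid synthase (-0.99 ± 0.11, adjusted p = 4.67e-06), were lower as well. The uncoupling protein genes went in opposite directions. Ucp2 stood at 26.7, 34.5 and 46.1 CPM in BPH/2J and 70.4, 111 and 165 CPM in BPN/3J (-1.67 ± 0.16, adjusted p = 6.08e-07), while Ucp3 stood at 28, 58.2 and 96.6 CPM and 10.3, 20.7 and 33 CPM (1.33 ± 0.26, adjusted p = 0.00192). Cyp4b1, a fatty acid hydroxylase, was higher by 1.92 ± 0.19 (adjusted p = 1.38e-06) and the coactivator Ppargc1b by 0.51 ± 0.10 (adjusted p = 0.00149). Cpt1b, the carnitine palmitoyltransferase of heart muscle, was not called (-0.20 ± 0.08, adjusted p = 0.0982) and was called lower without BPN_vehicle replicate 7 (-0.22, adjusted p = 0.00599).

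Pdk4, the kinase that shuts pyruvate out of oxidation and another gene known to rise on fasting, stood at 140, 460 and 706 CPM in BPH/2J and 125, 173 and 242 CPM in BPN/3J (1.18 ± 0.25, adjusted p = 0.00273). Its difference was 1.59 in batch 1 and 0.16 in batch 2 (adjusted p of the difference between batches 0.928), and in the batch 1 mice on Cmpd17b it was -0.43 (adjusted p = 0.513). Ucp3 likewise gave 1.58, 0.71 and 0.28 (adjusted p = 0.75 in the last). Whether the strain difference of these genes depends on treatment was not tested.

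Of 63 muscle glycolysis and glycogen genes, 4 were called higher and 9 lower (20.6%, beside 15.6% of all genes). The median was -0.05, and 45 of the intervals lay within 1.5-fold. Without BPN_vehicle replicate 7 the counts were 4 and 21, where 24.1% of all genes were called. Without BPN_vehicle replicates 1, 2 and 4 they were 3 and 6 of 64 (14.1%, beside 8.9%). Eno3, the muscle enolase, stood at 789, 886 and 1030 CPM in BPH/2J and 1290, 1350 and 1690 CPM in BPN/3J, without overlap (-0.63 ± 0.09, adjusted p = 0.000108). The muscle phosphoglycerate mutase Pgam2 (-0.57 ± 0.11, adjusted p = 0.00141), the platelet-type phosphofructokinase Pfkp (-0.63 ± 0.11, adjusted p = 0.000703) and transketolase Tkt of the pentose phosphate path (-0.65 ± 0.12, adjusted p = 0.00115) were lower in the same way. Slc2a12, a glucose transporter, was lower (-0.86 ± 0.17, adjusted p = 0.00191), whereas Hk1, a hexokinase, was higher by 0.55 ± 0.11 (adjusted p = 0.00242). Glycogen genes gave the largest differences. Phkg1, which carries the catalytic site of phosphorylase kinase, stood at 2.53, 3.43 and 4.51 CPM in BPH/2J and 14.4, 22.4 and 30 CPM in BPN/3J. Stbd1, which tethers glycogen to membranes, stood at 4.97, 6.51 and 8.93 CPM and 0.233, 0.538 and 1.04 CPM (3.55 ± 0.18, adjusted p = 1.5e-10). Neither gene overlapped between strains.

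**Figure D4:**
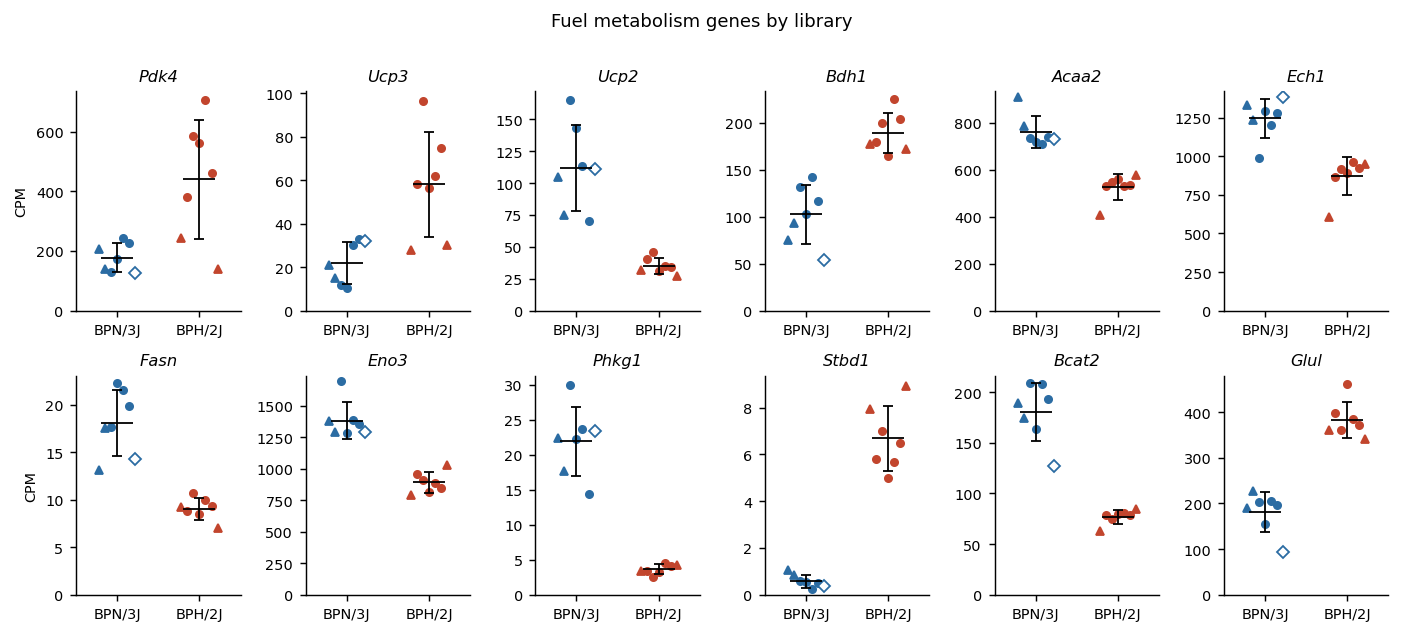
Levels in CPM (y axes, starting at 0) of genes of fuel metabolism in each library of BPN/3J (blue) and BPH/2J (red), with symbols and black lines (mean ± SD, n = 7) as in the plot of wall stress and matrix genes. Pdk4 and Ucp3 vary several-fold within BPH/2J and their batch 2 libraries (triangles) lie low, whereas Ucp2, Acaa2, Ech1, Fasn, Eno3, Phkg1, Stbd1, Bcat2, Bdh1 and Glul do not overlap between strains.

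Of the 52 genes of ketone, amino acid and one-carbon metabolism, 5 were called higher and 7 lower (23.1%, beside 15.6% of all genes), with a median of 0. Without BPN_vehicle replicate 7 the counts were 6 and 18, with a median of -0.11, where 24.1% of all genes were called. Without BPN_vehicle replicates 1, 2 and 4 they were 5 and 3 (15.4%, beside 8.9%). Bdh1, which oxidises the ketone body beta-hydroxybutyrate, stood at 165, 179 and 225 CPM in BPH/2J and 54.3, 103 and 142 CPM in BPN/3J (0.89 ± 0.16, adjusted p = 0.000701). Bcat2, the mitochondrial aminotransferase that begins breakdown of branched-chain amino acids, stood at 63.2, 78.5 and 85 CPM and 127, 189 and 209 CPM (-1.23 ± 0.11, adjusted p = 3.08e-07). Glul, glutamine synthetase, stood at 340, 372 and 461 CPM and 93.2, 196 and 227 CPM (1.08 ± 0.15, adjusted p = 6.84e-05). None of the 3 overlapped between strains. The creatine synthesis gene Gatm (1.11 ± 0.22, adjusted p = 0.00185) and the serine synthesis gene Psph (0.75 ± 0.12, adjusted p = 0.000276) were higher. The calls of Ech1, Ppargc1b, Pdk4, Eno3, Pgam2, Pfkp, Tkt, Gatm and Psph ended in batch 2 alone (2 against 2). Others ended in batch 1 alone (Hk1), with all 26 libraries (Acaa2, Ech1, Ucp3, Cyp4b1, Pdk4, Eno3, Pgam2, Tkt and Gatm) and without BPN_vehicle replicates 1, 2 and 4 (Ech1, Slc2a12 and Hk1).

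Most genes of the shared oxidative machinery had intervals close to no difference. Of 82 nuclear respiratory chain genes 0 were called higher and 1 lower (Uqcrc1, a core subunit of complex III, -0.23), with a median of -0.15, and the 95% interval lay within 1.5-fold for 74. None of 25 tricarboxylic acid cycle genes was called, with 23 within 1.5-fold, and none of 13 mitochondrially encoded genes was. Without BPN_vehicle replicate 7, 7 of 82 respiratory chain genes and 10 of 25 cycle genes were called lower, where 24.1% of all genes were called. The median of the cycle genes was -0.13 in that fit and -0.04 with all 14 libraries. Of 46 genes of mitochondrial dynamics and import, 1 was called higher and 3 lower with all 14 libraries. The counts were 1 and 21 without BPN_vehicle replicate 7.

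Detoxifying enzymes were lower more often than higher. Of 52 antioxidant and oxidative stress genes 3 were called higher and 13 lower, with a median of -0.14, and 3 and 5 without BPN_vehicle replicates 1, 2 and 4. The glutathione transferase Gsto1 stood at 87, 106 and 116 CPM in BPH/2J and 118, 174 and 226 CPM in BPN/3J, without overlap (-0.71 ± 0.12, adjusted p = 0.000307). Gstm1 (-0.57 ± 0.07, adjusted p = 2.41e-05), Gsta4 (-0.55 ± 0.10, adjusted p = 0.001) and the low-count Gstm6 (-1.91 ± 0.32, adjusted p = 0.00032), further glutathione transferases, were lower, as was the extracellular superoxide dismutase Sod3 (-0.41 ± 0.10, adjusted p = 0.00776). The Gstm genes are close copies of each other, so counts of a single member are uncertain. The 3 higher genes were Gsr, glutathione reductase (0.58 ± 0.11, adjusted p = 0.000868), Hmox1, haem oxygenase-1 (0.54 ± 0.10, adjusted p = 0.00101), and Duox1, a hydrogen peroxide-producing oxidase (1.79 ± 0.22, adjusted p = 1.28e-05).

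Among abundant genes with the largest differences, Alad, an enzyme of haem synthesis, stood at 128, 151 and 171 CPM in BPH/2J and 36.6, 41.6 and 55.8 CPM in BPN/3J (1.84 ± 0.09, adjusted p = 7.49e-11). Ftl1, the ferritin light chain, was higher by 0.90 ± 0.10 (adjusted p = 4.67e-06), and Hjv, the hemojuvelin coreceptor, by 0.66 ± 0.11 (adjusted p = 0.000526). None overlapped between strains. Ubb, a polyubiquitin gene, stood at 91.6, 118 and 134 CPM in BPH/2J and 431, 507 and 663 CPM in BPN/3J (-2.15 ± 0.10, adjusted p = 2.56e-11). Ndrg4, a cytoplasmic protein of heart and brain (-1.44 ± 0.18, adjusted p = 1.36e-05), Sord, sorbitol dehydrogenase (-1.29 ± 0.14, adjusted p = 2.75e-06), Cyb5a, cytochrome b5 (-1.15 ± 0.10, adjusted p = 1.21e-07), and Msrb1, a methionine sulfoxide reductase (-0.88 ± 0.14, adjusted p = 0.000193), were lower. Rilpl1 (0.82 ± 0.11, adjusted p = 3.02e-05), Pkig, an inhibitor of protein kinase A (0.85 ± 0.10, adjusted p = 6.13e-06), and the Golgi mannosidase Man2a2 (0.76 ± 0.08, adjusted p = 4.67e-06) were higher in all 7 libraries. Sod3, Gsr, Hmox1 and Hjv lost their calls in batch 2 alone (2 against 2). Further calls ended with all 26 libraries (Sod3, Gsr, Hmox1, Hjv, Cyb5a and Rilpl1) and with 25 libraries (Hmox1).

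All called genes of antigen presentation, 7 of class II and 13 of class I, were lower in the hypertensive strain. Class II molecules display peptides to helper T cells. Their genes are known to share a promoter module whose Y box, an inverted CCAAT element, binds the factor NF-Y, and class I promoters carry a related module. The 150 bases before the annotated start are shown for 4 class II genes and the class I gene H2-D1. They are from the RefSeq promoter table of build GRCm38.p6 (the C57BL/6J reference, neither of the strains compared). The windows are chr17:34287824-34287973 on the minus strand for H2-Aa, and on the plus strand chr17:34305717-34305866 for H2-Eb1, chr17:34153041-34153190 for H2-DMb1, chr17:34145099-34145248 for H2-DMb2 and chr17:35262944-35263093 for H2-D1. Each is written 5′ to 3′ along its gene, and capitals mark GATTGG, the orientation of the Y box, or its reverse complement CCAATC. The latter is CCAAT read along the gene, not the Y box orientation, and appears in H2-D1 and beside GATTGG in H2-Eb1. H2-D1 also holds an inverted CCAAT preceded by another letter (cattgg), upstream of its capitals and left unmarked. Which stretch of H2-D1 serves as a Y box was not tested.
H2-Aa: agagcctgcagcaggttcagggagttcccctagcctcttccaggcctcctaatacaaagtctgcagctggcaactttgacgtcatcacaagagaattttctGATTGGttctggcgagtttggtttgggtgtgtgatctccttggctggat
H2-Eb1: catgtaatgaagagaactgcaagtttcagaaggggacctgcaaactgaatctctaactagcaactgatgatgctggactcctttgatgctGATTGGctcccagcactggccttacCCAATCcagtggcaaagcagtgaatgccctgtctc
H2-DMb1: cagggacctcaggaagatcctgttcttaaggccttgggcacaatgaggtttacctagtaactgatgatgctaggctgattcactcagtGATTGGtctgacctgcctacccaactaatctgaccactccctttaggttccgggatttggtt
H2-DMb2: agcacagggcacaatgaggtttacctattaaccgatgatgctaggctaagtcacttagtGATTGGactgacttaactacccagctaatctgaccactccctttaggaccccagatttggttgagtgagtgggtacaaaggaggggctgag
H2-D1: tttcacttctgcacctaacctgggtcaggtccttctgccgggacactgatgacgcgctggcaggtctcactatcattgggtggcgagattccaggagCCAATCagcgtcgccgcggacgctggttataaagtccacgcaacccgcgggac
The longer motif CTGATTGG, which contains GATTGG, was found on either strand in the windows of H2-Aa, H2-Eb1 and H2-D1. It occurs in 4.1% of 32851 RefSeq promoter windows of 300 bases, longer than the 150 bases shown, and GATTGG in 16.1%. Such a match is a description of the letters and not evidence of binding, and the sequence of the BPH/2J and BPN/3J promoters was not analysed here. Promoters of the other called genes are not shown, and whether the element has a part in the strain difference was not tested.

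Of 13 class II presentation genes tested, 0 were called higher and 7 lower, with a median of -0.91. Cd74, the invariant chain that guards the peptide groove, stood at 14.8, 23.2 and 49.6 CPM in BPH/2J and 40.6, 71.5 and 94.2 CPM in BPN/3J (-1.16 ± 0.23, adjusted p = 0.00147). Lower by similar amounts were the chains H2-Ab1 (-1.04 ± 0.21, adjusted p = 0.00226), H2-Aa (-0.99 ± 0.24, adjusted p = 0.00762) and H2-Eb1 (-1 ± 0.25, adjusted p = 0.0099) and the peptide-exchange chains H2-DMb1 (-1.23 ± 0.34, adjusted p = 0.0204) and H2-DMb2 (-1.26 ± 0.31, adjusted p = 0.00924). The strains overlapped for each, with 4 to 6 of 7 BPN/3J libraries above every BPH/2J library. Ciita, the master activator of class II genes, stood at 0.438, 1.26 and 1.4 CPM and 0.679, 0.953 and 1.55 CPM and was not called (-0.08 ± 0.29, adjusted p = 0.902). Markers of macrophages, which carry class II molecules, summed to 299 to 413 CPM in BPH/2J and 223 to 364 CPM in BPN/3J. Of these 20 markers, 3 were called higher and 1 lower (20%, beside 15.6% of all genes). None of 8 B cell markers was called. No list of dendritic cell markers was used, and the part of cell numbers in the class II result was not tested. Without BPN_vehicle replicates 1, 2 and 4, 2 of 14 class II genes were called lower. In the batch 1 mice given Cmpd17b, H2-DMb1 was called lower (-1.6, adjusted p = 0.00214). Cd74 (-1.05, adjusted p = 0.115), H2-Ab1 (-1, adjusted p = 0.11) and H2-Aa (-1.03, adjusted p = 0.128) had the same sign there but were not called. The same held for H2-Eb1 (-1.15, adjusted p = 0.136) and H2-DMb2 (-0.41, adjusted p = 0.421).

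Of 27 class I presentation genes 0 were called higher and 13 lower, with a median of -0.56. Class I molecules show peptides from inside the cell to cytotoxic T cells. H2-K1, a classical heavy chain, stood at 58, 75.1 and 94 CPM in BPH/2J and 99.8, 133 and 254 CPM in BPN/3J (-0.96 ± 0.16, adjusted p = 0.000403). H2-D1 (-0.79 ± 0.17, adjusted p = 0.00261), the light chain B2m (-0.91 ± 0.16, adjusted p = 0.000648) and the class I activator Nlrc5 (-1.39 ± 0.24, adjusted p = 0.000567) were lower as well, all without overlap. Tap1, which pumps peptides into the endoplasmic reticulum, was lower (-0.87 ± 0.19, adjusted p = 0.00374). It overlapped in 1 BPN/3J library. H2-Q6 and H2-Q7, near-identical nonclassical genes, summed to 4.66, 6.06 and 8.59 CPM in BPH/2J and 13.7, 18.5 and 30.6 CPM in BPN/3J, so the difference was present in the sum of these copies. BPN_vehicle replicate 7 held the highest level of each gene named here. Without it the list gave 0 higher and 15 lower with a median of -0.37, and H2-K1 (-0.79, adjusted p = 2.19e-05), B2m (-0.73, adjusted p = 3.5e-06) and Nlrc5 (-1.15, adjusted p = 6.62e-05) were still called. Endothelial markers, summed at 4870 CPM in that library, were called in 3 of 22 cases (13.6%, beside 15.6% of all genes), all lower in BPH/2J. Among them were Aqp1 (-0.73 ± 0.16, adjusted p = 0.00303) and Plvap (-0.75 ± 0.19, adjusted p = 0.0101). The median of the 22 was -0.22, and 0.01 without that library. The part of endothelial markers in the class I result was not tested. The class I families differ in sequence between inbred strains, and the effect of this on the counts was not tested. In the batch 1 mice given Cmpd17b, H2-D1 (-0.59, adjusted p = 0.0428) and H2-Q6 (-1.58, adjusted p = 0.0204) were called lower. H2-K1 (-0.81, adjusted p = 0.0806), B2m (-0.74, adjusted p = 0.118) and Nlrc5 (-0.98, adjusted p = 0.269) had the same sign there but were not called. The same held for Tap1 (-0.3, adjusted p = 0.54) and H2-Q7 (-1.44, adjusted p = 0.182).

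**Figure D5:**
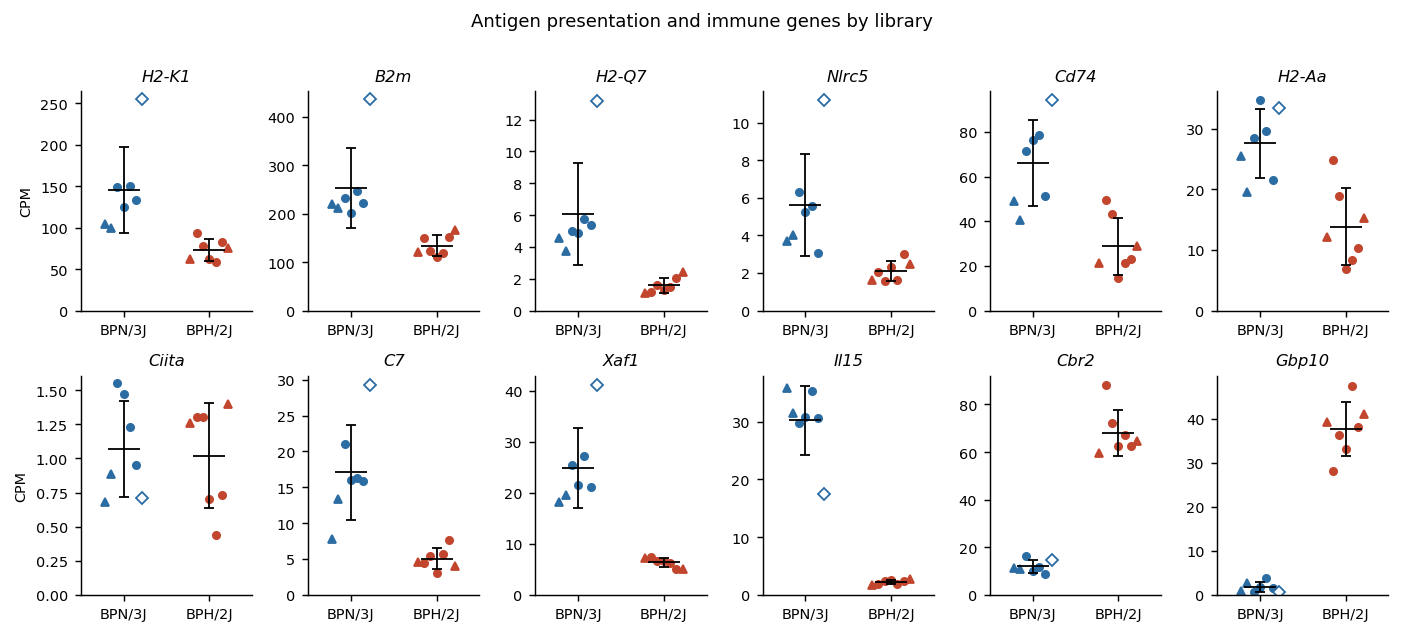
Levels in CPM (y axes, starting at 0) of antigen presentation and other immune genes in each library of BPN/3J (blue) and BPH/2J (red), with symbols and black lines (mean ± SD, n = 7) as in the plot of wall stress and matrix genes. BPN_vehicle replicate 7 (open diamond) is the highest library for H2-K1, B2m, H2-Q7, Nlrc5, C7 and Xaf1 and the lowest BPN/3J library for Il15. Ciita overlaps between strains.

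Complement and cytokine genes were mixed. Of 38 complement genes 2 were called higher and 11 lower, with a median of -0.2, and 1 and 3 of 37 without the 3 BPN/3J libraries that held hepatocyte transcripts. The liver is the main source of complement, and the part of those transcripts in the list's count was not tested. C7, a terminal complement protein, stood at 3.08, 4.59 and 7.69 CPM in BPH/2J and 7.8, 15.9 and 29.3 CPM in BPN/3J, without overlap (-1.73 ± 0.20, adjusted p = 8.71e-06), and C3, the central component, was not called (-0.12 ± 0.14, adjusted p = 0.645). Il15, a cytokine that maintains natural killer cells, stood at 1.75, 2.36 and 2.66 CPM in BPH/2J and 17.6, 30.9 and 35.8 CPM in BPN/3J (-3.76 ± 0.15, adjusted p = 7.01e-12). Interferon-induced genes went both ways, with 5 of 69 called higher and 9 lower and a median of -0.18. Xaf1, a pro-apoptotic interferon target, was lower (-1.96 ± 0.16, adjusted p = 7.3e-08), as was the GTPase Tgtp1 (-1.41 ± 0.30, adjusted p = 0.00288). Gbp10, a guanylate-binding protein with close copies, was higher (4.49 ± 0.31, adjusted p = 2.46e-08). Cbr2, a carbonyl reductase that marks resident macrophages, stood at 59.6, 64.8 and 88.2 CPM and 8.75, 11.4 and 16.4 CPM (2.51 ± 0.13, adjusted p = 2.35e-10). The calls of H2-Ab1, H2-Eb1, H2-DMb1, H2-DMb2, H2-D1, H2-Q7, B2m, Nlrc5, Tap1, Aqp1, Plvap and Tgtp1 ended in batch 2 alone (2 against 2). Calls also ended in batch 1 alone (H2-DMb1 and H2-DMb2), with all 26 libraries (H2-Aa, H2-Eb1, Aqp1 and Plvap), with 25 libraries (H2-Eb1) and without BPN_vehicle replicates 1, 2 and 4 (H2-Aa, H2-Eb1, H2-DMb1 and H2-DMb2).

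Ion channel genes were called in 14 of 58 cases (24.1%, beside 15.6% of all genes), 9 higher and 5 lower in BPH/2J, with a median of 0.16. Without BPN_vehicle replicate 7 the counts were 19 and 6, where 24.1% of all genes were called. Without BPN_vehicle replicates 1, 2 and 4 they were 6 and 1 of 59 (11.9%, beside 8.9%). Kcne1, which modulates the slow delayed rectifier current, stood at 6.55, 8.49 and 9.66 CPM in BPH/2J and 3.79, 4.45 and 5.47 CPM in BPN/3J, without overlap (0.91 ± 0.12, adjusted p = 2.32e-05). The background potassium channel Kcnk1 (2.72 ± 0.39, adjusted p = 7.35e-05) and the mechanosensitive channel Piezo2 (1.74 ± 0.36, adjusted p = 0.00239) were higher and the sodium channel subunit Scn3b lower (-1.48 ± 0.26, adjusted p = 0.000606), all at low counts. The gap junction gene Gja1 was not called (0.38 ± 0.14, adjusted p = 0.0818), and it was called without BPN_vehicle replicate 7 (0.27, adjusted p = 0.0038).

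Of 49 calcium cycling genes, 4 were called higher and 2 lower, or 12.2% beside 15.6% of all genes, with a median of 0.09. Those counts were 7 and 3 without BPN_vehicle replicate 7. Atp2a2, the sarcoplasmic calcium pump, stood at 8040, 9140 and 9620 CPM in BPH/2J and 2660, 7390 and 9600 CPM in BPN/3J, where the lowest value was that of BPN_vehicle replicate 7 (0.27 ± 0.19, adjusted p = 0.404). Its inhibitor Pln (0.19 ± 0.16) and the release channel Ryr2 (0.16 ± 0.16) were not called either. Casq1, the skeletal calsequestrin, was higher without overlap (1.12 ± 0.14, adjusted p = 2.01e-05). Cacna2d1, a subunit of the L-type channel, was higher as well (0.58 ± 0.10, adjusted p = 0.000593), with 5 of 7 BPH/2J libraries above every BPN/3J library.

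Of 39 adrenergic signalling genes 4 were called higher and 4 lower (20.5%, beside 15.6% of all genes), with a median of 0.04. The counts were 10 and 7 without BPN_vehicle replicate 7, where 24.1% of all genes were called. They were 2 and 1 without BPN_vehicle replicates 1, 2 and 4 (7.69%, beside 8.9%). Rgs2, which damps signalling through Gq-coupled receptors, stood at 14.5, 17.7 and 26.6 CPM in BPH/2J and 5.58, 7.55 and 12.1 CPM in BPN/3J, without overlap (1.21 ± 0.15, adjusted p = 1.32e-05). The alpha-1A receptor Adra1a was higher (0.56 ± 0.14, adjusted p = 0.0114). The receptor kinase Grk5 (-0.47 ± 0.10, adjusted p = 0.00424) and Slc22a3, a transporter that clears noradrenaline from the tissue (-0.76 ± 0.15, adjusted p = 0.00125), were lower. Beside Nppb, 3 further genes of the natriuretic peptide and cGMP list were called, of 18 tested (22.2% with Nppb, beside 15.6% of all genes). Prkg1, the cGMP-dependent kinase (0.55 ± 0.11, adjusted p = 0.00258), and Mme, the neprilysin that degrades natriuretic peptides (0.60 ± 0.10, adjusted p = 0.000211), were higher. Pde5a, which degrades cGMP, was lower (-0.57 ± 0.12, adjusted p = 0.00323).

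Hormone and growth factor genes added a few wide differences. Agt, angiotensinogen, stood at 0.49, 0.716 and 0.877 CPM in BPH/2J and 3.86, 4.42 and 6.18 CPM in BPN/3J (-2.66 ± 0.15, adjusted p = 5.91e-10). It is made mainly in liver, and the BPN/3J replicates 5, 6 and 7, with Alb at no more than 0.0866 CPM, held Agt at 5.29, 4.42 and 3.94 CPM. The part of liver transcripts in the Agt difference was not tested. The angiotensin receptor Agtr1a missed the threshold (0.35 ± 0.13, adjusted p = 0.0756), although all 7 BPH/2J libraries lay above all BPN/3J libraries, and was called without BPN_vehicle replicate 7 (0.24, adjusted p = 0.00805). Endothelin-3, from Edn3, was at 6.69, 8.15 and 8.42 CPM and 0, 0.161 and 0.237 CPM (5.97 ± 0.32, adjusted p = 3.51e-10). The vessel-stabilising ligand Angpt1 was higher (1.23 ± 0.16, adjusted p = 1.98e-05) and its antagonist Angpt2 lower (-1.06 ± 0.22, adjusted p = 0.00207), with no overlap for either. Markers of Schwann cells, which ensheathe cardiac nerves, were called in 6 of 8 cases, 5 higher and 1 lower (2 and 1 of 10 without BPN_vehicle replicates 1, 2 and 4). Ncam1 (1.22 ± 0.23, adjusted p = 0.00113), Cdh19 (0.91 ± 0.19, adjusted p = 0.00217), Kcna1 (1.31 ± 0.33, adjusted p = 0.00996) and S100b (1.15 ± 0.31, adjusted p = 0.0169) were higher, and the lower one, Cryab, is abundant in cardiomyocytes and makes up most of the marker sum (645 to 896 CPM in BPH/2J and 887 to 1200 CPM in BPN/3J). Kcnk1, Piezo2, Scn3b, Adra1a, Grk5, Prkg1, Mme, Pde5a, Angpt2, Cdh19 and S100b lost their calls in batch 2 alone (2 against 2). Others ended in batch 1 alone (Adra1a, Kcna1 and S100b), with all 26 libraries (Casq1, Cacna2d1, Adra1a, Grk5, Slc22a3, Prkg1, Mme and Cdh19) and without BPN_vehicle replicates 1, 2 and 4 (Adra1a, Grk5, Slc22a3, Pde5a, Kcna1 and S100b).

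Some genes were near absent in 1 strain. Plppr1, a neuronal membrane protein of the lipid phosphatase family, stood at 15.9, 19.9 and 24.6 CPM in BPH/2J and 0, 0.0263 and 0.11 CPM in BPN/3J. Gdpd3, a lysophospholipase, stood at 20.7, 27.8 and 30 CPM and 0.166, 0.263 and 0.613 CPM, and Tafa2, a secreted chemokine-like protein, at 8.48, 9.74 and 12.8 CPM and 0, 0.105 and 0.429 CPM. In the other direction, Abca4, a retinoid transporter, stood at 1.06, 1.99 and 3.16 CPM in BPH/2J and 26.5, 43.6 and 46.8 CPM in BPN/3J. Rab6b, a small GTPase, stood at 0.245, 0.479 and 1.01 CPM and 9.52, 13.3 and 18.6 CPM, and the autophagy protease Atg4a at 0.699, 0.911 and 1.36 CPM and 12.6, 14 and 15 CPM. Sycp2, a meiotic chromosome protein, stood at 0.239, 0.471 and 0.673 CPM and 13.8, 16.3 and 32.6 CPM. All of these were without overlap, with adjusted p-values from 9.31e-14 (Plppr1) to 3.26e-10 (Tafa2, whose log2 difference of 6.43 ± 0.34 was 7.13 without BPN_vehicle replicate 1), and each was called in both batches alone.

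Some opposite calls fell on near-identical copies. Eno1b, a copy of the enolase gene Eno1, was higher by 6.19 ± 0.18 (adjusted p = 1.28e-13) while Eno1 was lower (-0.70 ± 0.08, adjusted p = 3.68e-06). Their sum was 109, 133 and 160 CPM in BPH/2J and 107, 147 and 179 CPM in BPN/3J, so the strains overlapped. Ahcyl and Ahcy, copies of a homocysteine-forming hydrolase, differed by 5.56 ± 0.22 and -1.38 ± 0.13, and their sum was 24.9, 30.9 and 34.8 CPM against 19.9, 33.9 and 37.5 CPM. Rnaset2b and Rnaset2a, copies of a ribonuclease, differed by 3.69 ± 0.12 and -0.49 ± 0.10, with sums of 131, 154 and 166 CPM against 84.8, 130 and 144 CPM. Whether the counting divided the reads of such copies differently in the strains was not tested. The call of Rnaset2a ended in batch 1 alone. Further calls ended with all 26 libraries (Eno1) and without BPN_vehicle replicates 1, 2 and 4 (Rnaset2a).

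Called genes lay next to each other more often than uncalled ones. In the gene order of RefSeq GRCm38.p6, the next tested neighbour was also called for 546 of 2238 called genes (24.4%) and for 13.6% of uncalled genes. Of these neighbouring pairs 357 (65.4%) had the same direction. Of 633 genes past 1.5-fold, 97 (15.3%) had a next neighbour past 1.5-fold, beside 4.31% of all placed genes. The longest run held 10 consecutive called genes, 4 higher and 6 lower, among them the zinc finger genes Zfp970, Zfp971 and Zfp931, and ended with Sycp2. A run of 9 held both Rnaset2 copies.

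Immediate early genes gave 0 higher and 2 lower of 34 (5.88%), heat shock and unfolded protein genes 2 and 1 of 40 (7.5%), and cell cycle genes 3 and 1 of 53 (7.55%), beside the 15.6% of all genes. The cell cycle counts were 6 and 5 without BPN_vehicle replicate 7. The core clock gave 2 higher and 1 lower of 16 (18.8%). Of 83 ribosomal protein genes 76 had an interval within 1.5-fold. The formyl peptide receptors Fpr1 and Fpr2 reached at most 0.467 and 0.289 CPM in any library and lay under the filter, so a strain difference was not detectable at this depth.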

How the data were processed

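Left ventricular polyadenylated RNA of 26 mice was sequenced, and the 14 vehicle libraries were compared here. The authors deposited 1 table of estimated counts for 40413 genes, with 93.3% of its values whole and 2.21% over 0.01 away from a whole number. Per the submitters' processing notes, Trim Galore 0.6.7, STAR 2.7.9a and GRCm39 (mm39) were used. No source used here names the counting program, its strand setting or the annotation, so overlapping and antisense genes are uncertain. No column was left unmapped, and none of the 91 pairs of vehicle libraries was identical.

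Estimated counts were rounded to whole numbers and fitted with edgeR 4.0.16 (R 4.3.3), with filterByExpr, TMM scaling, a batch term and Benjamini-Hochberg adjustment over all genes tested. A called gene has an adjusted p under 0.05. Levels are TMM-scaled counts per 1000000 (CPM) and are not per length, so they compare libraries and not genes. Depth ran from 25476100 to 48648200 counts. The p-values measure the spread between individual mice of each inbred line. The procedure was tested on simulated data. Alternatives used DESeq2 1.42.0, limma 3.58.1 voom with quality weights, other scalings and filters, each batch alone, other sets of libraries and each library left out. Figures were drawn with matplotlib 3.10.9.

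The comparison and the gene lists were chosen with earlier results of these data known. Genes named are a set of standard cardiac genes, up to 6 called members of each list with the smallest p, and 15 per direction with the largest difference among called genes of average log2 CPM of at least 1 without overlap, or of at least 6. Csrp3, Fbn1, Fbn2, Vcan, Ucp3, Ech1, Cpt1b, Pgam2, Hk1, Slc2a12, Gatm, Hmox1, Sod3, Tap1, H2-DMb1, Ciita, C3, Tgtp1, Piezo2, Adra1a and Rnaset2a lie outside that rule and were chosen after their values were seen. Promoter sequences and gene order are from RefSeq GRCm38.p6, another build than the counts use, and serve only for sequence and order. The effect of sequence differences between the strains and the reference on the counts was not tested. Some genes that the rule selects are not reported here.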

Additional observations from a re-analysis of the deposited data

Results flagged for a closer look

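Each named gene was examined for a library far from the rest of its group of 7, taken as a gap to the nearest library above Dixon's 95% critical value. Of 304 groups examined, 47 held such a library, where chance gives about 5%, and 33 of the 47 were BPN_vehicle replicate 7. By rank it correlated with the remaining libraries at a median of 0.944, and the next lowest of its group at 0.966.

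BPN_vehicle replicate 7 was the highest of its group, in CPM, for Sycp2 (32.6), Alad (55.8), Tpm3 (80.05), Myh7 (2277), Fbn1 (53.6), Fbn2 (0.742), Mmp3 (0.355) and Col1a1 (68.3). Its level was likewise above the rest for Plau (11.1), Tgfb1 (37.2), Tkt (55.8), H2-K1 (254), H2-D1 (370), H2-Q7 (13.2), B2m (436) and Tap1 (22.5). Above the rest also lay Nlrc5 (11.2), Xaf1 (41.1), Angpt2 (13.4), Aqp1 (531), Piwil2 (0.355) and Bmp6 (41.9). It was the lowest of its group for Il15 (17.6), Sord (88.8), Hjv (77.5), Atp2a2 (2664), Pln (2269), Slc2a12 (5.17), Slc22a3 (6.78), Gja1 (211), Angpt1 (9.36) and Ahcy (19.9). The differences of these genes with and without this library are set out beside the results where they change a call. Whether its raised endothelial markers or its lower correlation bear on them was not tested.

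BPH_vehicle replicate 1 stood apart for Cyb5a (31.9 CPM, below the next at 39.3), Ryr2 (840 CPM, above the next at 699), Acaa2 (407 CPM, below the next at 532), Ech1 (607 CPM, below the next at 868), Acot7 (27.5 CPM, below the next at 34.2) and Gsta4 (28.9 CPM, below the next at 39). BPH_vehicle replicate 2 stood apart for Chgb (1.17 CPM, above the next at 0.775). BPH_vehicle replicate 4 stood apart for Kcne1 (6.55 CPM, below the next at 8.44). BPN_vehicle replicate 1 stood apart for Tafa2 (0.429 CPM, above the next at 0.133) and Acaa2 (910 CPM, above the next at 787). BPN_vehicle replicate 2 stood apart for Tnni1 (0.184 CPM, above the next at 0.0666) and Thrsp (11.8 CPM, above the next at 7.52). BPN_vehicle replicate 3 stood apart for Eno3 (1695 CPM, above the next at 1380) and Stag3 (0.447 CPM, above the next at 0.129).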

How the results depend on the processing

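The count of 2362 strain differences moved with the libraries used. It was 1509 in batch 1 alone, 1168 in batch 2 alone, 4057 with limma voom and quality weights, 1525 with all 26 libraries, and 1420 without BPN_vehicle replicates 1, 2 and 4, an alternative chosen after seeing the data. Leaving out each library in turn gave 1999 to 3645, the highest without BPN_vehicle replicate 7, and 3461 genes were called without both replicates numbered 7, also chosen after seeing the data. DESeq2 gave 2788 and a filter of 1 CPM in 7 libraries 1901. The 701 calls past 1.5-fold became 391 at 2-fold and 634 to 742 with a library left out. The interaction with batch went from 0 to 15 calls, with values of 2, 1, 15 and 1 without BPH_vehicle replicate 1 and BPN_vehicle replicates 2, 4 and 7.

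Over 148 named genes and 27 alternatives, 3971 values were obtained: 3798 kept direction and side of the threshold, 134 lost a call, 24 gained one and 15 changed sign, none of them for a called gene. The cause was not tested. Signs changed for Nppa (-0.12 without BPN_vehicle replicates 1, 2 and 4), Myh6 (-0.08 in batch 1, -0.02 with voom, -0.06 without those 3 libraries, -0.03 to 0.07 with a library left out), Pln (-0.03 in batch 2), Ciita (0.78 in batch 2, -0.21 to 0.06 with a library left out) and C3 (0.1 in batch 2). No paired analysis was possible because the labels give each animal its own number and the groups share none.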

Other observations

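Some germline genes, which are silent in most adult tissue, differed at low counts. Of 28 piwi, meiosis and germline genes, 9 passed the filter on low counts, which a gene can pass through the strain where it is high, so their share of calls says nothing of the list. Piwil2, a partner of piwi-interacting RNAs, stood at 0.516, 1.09 and 1.27 CPM in BPH/2J and 0.0358, 0.0999 and 0.355 CPM in BPN/3J (3.03 ± 0.41, adjusted p = 4.47e-05). Stag3, a meiotic cohesin subunit, stood at 0.505, 0.983 and 1.68 CPM and 0.0333, 0.0735 and 0.447 CPM (2.95 ± 0.48, adjusted p = 0.000285, and 3.78 without BPN_vehicle replicate 3), and the germ cell helicase Ddx4 at 0.0337, 0.393 and 0.612 CPM and 0, 0.0289 and 0.143 CPM (3.04 ± 0.71, adjusted p = 0.00623). Meiob, which binds single-stranded DNA in meiosis, went the other way at 0, 0 and 0.0798 CPM and 0.133, 0.433 and 0.809 CPM (-4.20 ± 0.69, adjusted p = 3e-04, and -5.1 without BPH_vehicle replicate 2). Piwil2 and Stag3 were called in each batch alone, while Ddx4 passed the filter in neither.

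The lipid and retinoid genes Thrsp and Rbp7 added separations at higher counts. Thrsp, a thyroid-responsive regulator of lipid synthesis, stood at 24.8, 36.4 and 45.7 CPM in BPH/2J and 5.76, 6.83 and 11.8 CPM in BPN/3J, and Rbp7, a retinol-binding protein, at 39.8, 51.9 and 62.9 CPM and 8.32, 9.82 and 24.4 CPM, both without overlap (adjusted p = 8.96e-09 and 2.63e-06). In the TGF-beta, BMP and activin family, 4 of 39 genes were called higher and 5 lower, and 1 and 2 without BPN_vehicle replicates 1, 2 and 4. Id4, a BMP-responsive inhibitor of transcription factors (2.17 ± 0.20, adjusted p = 6.01e-07), and the activin antagonist Fst (1.26 ± 0.34, adjusted p = 0.0152) were higher, and the ligands Bmp6 (-0.81 ± 0.15, adjusted p = 0.00106) and Bmp5 (-1.27 ± 0.25, adjusted p = 0.0015) were lower. Fst stood at 0.311, 0.713 and 1.09 CPM in BPH/2J and 0.0717, 0.316 and 0.588 CPM in BPN/3J. Bmp5 stood at 0.37, 0.713 and 0.958 CPM and 0.842, 1.65 and 2.43 CPM, and both genes overlapped between strains. The calls of Fst and Bmp6 ended in batch 2 alone (adjusted p = 0.557 and 0.0993). In the batch 1 mice given Cmpd17b the difference of Fst was -0.78 (adjusted p = 0.209). Of 18 autonomic and neural genes 3 were called higher and 2 lower, and 1 and 2 of 20 without BPN_vehicle replicates 1, 2 and 4. Chgb, a secretory granule protein, was higher (1.29 ± 0.29, adjusted p = 0.00409), and Ddc, which makes dopamine from its precursor, was lower (-1.94 ± 0.24, adjusted p = 1.4e-05). The call of Chgb ended in batch 1 alone and in batch 2 alone (adjusted p = 0.0547 and 0.105).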
